A study of Ovis aries with 32 samples.

Results

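Genes for the uptake and storage of fat were examined in the heart muscle of lambs whose mothers had received excess cortisol. Of the 5 genes sought (LPL, SCD, PPARG, LEP and ADIPOQ), 4 had a probe on the sheep array, and they were represented by 6 of its 15008 probes. Probes were chosen by the gene symbol in the scanner output or by the sheep symbol of the transcript they were designed from, and ADIPOQ had no probe under either. LPL and LEP had 2 probes each, and SCD and PPARG had 1 each. RNA came from the left ventricular free wall (LV) and the interventricular septum (IVS). Each tissue had 8 Control and 8 CORT lambs, with 1 sample on each of 32 arrays. CORT lambs were born to ewes infused with cortisol at 0.5 mg/kg/day from day 115 of gestation until delivery, and Control lambs to ewes given no cortisol. All lambs were 14 days old and untreated themselves. The treated unit was therefore the ewe. By the methods control ewes bore 8 lambs, 1 set of twins among them, so the 8 Control lambs include a twin pair and come from fewer ewes. More CORT lambs were born than arrayed, also with 1 set of twins, and the methods do not say which were used. All tests here took each lamb as independent. By the methods the LV and IVS samples were cut from the same hearts, so the 32 arrays do not stand for 32 lambs. The main comparisons between the tissues took each array as independent, and a block by lamb number was an alternative. The sex of each lamb was not given in the labels.

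Lipoprotein lipase, the product of LPL, is anchored to the capillary wall and releases fatty acids from circulating triglyceride, the main route by which the heart muscle receives them from lipoproteins. Stearoyl-CoA desaturase, the product of SCD, makes monounsaturated fatty acids, which are preferred for triglyceride storage. PPARG is the nuclear receptor that directs the formation of fat cells, and LEP and ADIPOQ encode leptin and adiponectin, hormones released mainly by those cells. Around birth the heart shifts from lactate and glucose toward fatty acids as its fuel.

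The sequences of the LPL, LEP and PPARG probes are shown because they decide which values can be read as repeat measurements of a gene. Both LPL probes were designed from 1 mRNA record, at bases 1497 to 1556 and 1537 to 1596, and the 20 bases they share are in capitals.
LPL A_70_P029922: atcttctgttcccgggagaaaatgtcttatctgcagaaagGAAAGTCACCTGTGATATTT
LPL A_70_P029921: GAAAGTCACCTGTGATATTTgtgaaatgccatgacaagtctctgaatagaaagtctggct
The LEP probes lay at bases 184 to 243 and 185 to 244 of their record and shared 59 of 60 bases, again in capitals, so that they are almost the same probe.
LEP A_70_P017127: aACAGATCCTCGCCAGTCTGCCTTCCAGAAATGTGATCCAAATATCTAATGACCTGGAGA
LEP A_70_P017126: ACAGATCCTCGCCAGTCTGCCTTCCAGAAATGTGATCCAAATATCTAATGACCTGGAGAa
The PPARG probe lay at bases 1368 to 1427 of its record and ended with TAG, a stop codon closing an open frame (capitals).
PPARG A_70_P051021: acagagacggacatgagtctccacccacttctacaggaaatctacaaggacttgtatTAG
The SCD probe (A_70_P039361) lay at bases 1846 to 1905 of its record. The array's annotation lists all 6 probes as unmapped, and no genome position is given here.

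All 4 genes gave signal above the negative controls in heart muscle, with a wide margin for LPL and a narrow one for LEP. A probe was counted as above background on an array when its normalized intensity exceeded by more than 10% the 95th percentile of the 77 spots that serve as negative controls on that array. By this limit 5 of the 6 probes were above background on all 32 arrays, and LEP A_70_P017126 was above it on 15 of 16 LV and 16 of 16 IVS arrays. The scanner software marked LPL, SCD and PPARG as well above background on every array, and missed each LEP probe on 1 LV array. As a median over arrays, the raw intensity of LPL A_70_P029922 was 75.5 times the negative control percentile in the LV and 76.1 times in the IVS. For LPL A_70_P029921 the ratio was 50.8 in the LV and 52.7 in the IVS. PPARG was 8.15 times the percentile in the LV and 7.03 times in the IVS. SCD stood at 2.05 times in the LV and 2.08 times in the IVS. The LEP probes stood between 1.55 and 1.82 times in the 2 tissues. No probe was saturated on any array. These ratios depend on each probe's own sequence and do not rank the genes by abundance.

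How far a value near background can be trusted shows in the repeat probes. Over the 16 lambs of a tissue, the LPL probes followed each other with r = 0.94 and rho = 0.86 in the LV (permutation p = 1e-05 for r, the smallest 100000 draws can give, and 7e-05 for rho; adjusted p = 0.00015 and 0.0007 over 30 relations). In the IVS they followed each other with r = 0.90 and rho = 0.92 (permutation p = 2e-05 and 1e-05; adjusted p = 0.0002 and 0.0003). Without the 2 lambs farthest from the median, r was 0.92 in the LV and 0.86 in the IVS. Within the 5 slides it lay between 0.846 and 0.995. The LEP probes, although they share nearly all bases, had r = 0.37 and rho = 0.37 in the LV and r = 0.37 and rho = 0.18 in the IVS (permutation p from 0.16 to 0.501; adjusted p from 0.413 to 0.716). Without the 2 farthest lambs the LEP r was 0.12 in the LV and 0.25 in the IVS, and within slides it ran from -0.65 to 0.88. Differences between lambs of the size seen for LEP, over a range of 1.22- to 1.37-fold in a tissue, were thus not repeated by the second probe.

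**Figure D1:**
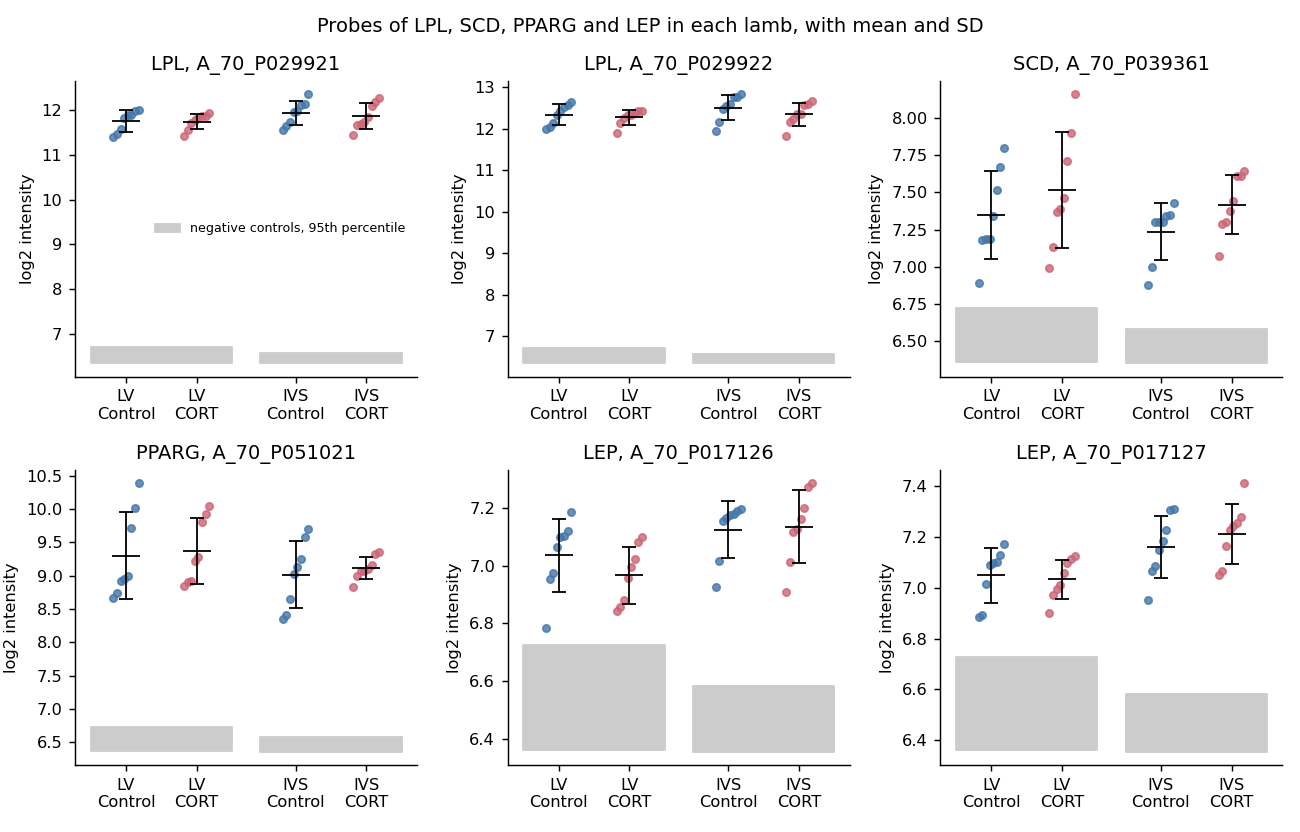
Normalized log2 intensity (vertical axes, a different scale in each panel) of the 6 probes in the LV and IVS of Control (blue) and CORT (red) lambs, 8 per group. Each point is 1 lamb, ordered by value within its group, bars give the mean and SD, and the grey band spans the 95th percentile of the negative controls over the 16 arrays of a tissue. LPL lies far above the band, SCD and LEP just above it, and CORT and Control lambs overlap in every panel.

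In the LV, the tested probes of the 4 genes did not separate CORT from Control lambs. By the moderated test of limma, two-sided, 0 of 6 probes had an unadjusted p under 0.05, the threshold of the study's methods, where 3.85% of the 11518 LV probes did. No probe on the array passed Benjamini-Hochberg adjustment in the LV (444 had an unadjusted p under 0.05). Beside these tests, an exact permutation test over all 12870 assignments was run for each probe. The p-values set the difference between the groups against the spread between these lambs, not between ewes.

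LPL A_70_P029921, for the lipase, ranged from 11.40 to 12.00 (median 11.85) in Control and from 11.41 to 11.92 (median 11.81) in CORT lambs on the log2 intensity scale. The ranges were nearly the same, and the log2 difference of CORT minus Control was -0.01 ± 0.10 (SE, n = 8 per group; limma p = 0.911, exact permutation p = 0.918). LPL A_70_P029922 ranged from 11.99 to 12.63 (median 12.38) in Control and from 11.90 to 12.43 (median 12.33) in CORT lambs. Its log2 difference was -0.06 ± 0.10 (limma p = 0.579, exact permutation p = 0.594). The 95% confidence intervals of the ratio of CORT to Control ran from 0.857 to 1.15 and from 0.825 to 1.12 for these probes in the LV.

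SCD, for the desaturase, ranged from 6.89 to 7.80 (median 7.27) in LV Control and from 6.99 to 8.16 (median 7.43) in LV CORT lambs. The highest value belonged to CORT lamb 4, and the Control mean was exceeded in 6 of the 8 CORT lambs. The log2 difference was 0.17 ± 0.16 (SE), a ratio of 1.12 with a confidence interval from 0.89 to 1.42 (limma p = 0.307, exact permutation p = 0.348). On slide 1, which held 4 lambs of each group, the log2 difference was 0.42, and on slide 2 it was -0.08.

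PPARG ranged from 8.66 to 10.39 (median 8.97) in LV Control and from 8.85 to 10.05 (median 9.25) in LV CORT lambs. Its spread was the widest of the 6 probes in the LV, with a 3.31-fold range over the 16 lambs. The log2 difference of 0.07 ± 0.26 (SE) was well inside that spread (ratio 1.05, confidence interval from 0.718 to 1.54; limma p = 0.783, exact permutation p = 0.788). It was 0.43 on slide 1 and -0.29 on slide 2.

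LEP A_70_P017126 ranged from 6.78 to 7.19 (median 7.08) in LV Control and from 6.84 to 7.10 (median 6.98) in LV CORT lambs, a log2 difference of -0.07 ± 0.06 (limma p = 0.273, exact permutation p = 0.242). LEP A_70_P017127 ranged from 6.89 to 7.17 (median 7.09) in Control and from 6.90 to 7.12 (median 7.03) in CORT lambs, a log2 difference of -0.01 ± 0.05 (limma p = 0.787, exact permutation p = 0.754). At this brightness log2 differences are compressed toward 0 by the offset of 50 added at background correction, for SCD as well as LEP. From the scanner's processed signal, which has no such offset, the LV differences were -0.28 and -0.14 at the LEP probes and 0.30 for SCD (limma adjusted p = 0.9997 for each).

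In the IVS, SCD had the smallest p of the 6 probes and the LPL probes lay on the other side of 0, but none of the 6 probes had an unadjusted limma p under 0.05, where 3.59% of the 11685 IVS probes did. No probe on the array passed Benjamini-Hochberg adjustment there (419 had an unadjusted p under 0.05). SCD ranged from 6.88 to 7.43 (median 7.30) in Control and from 7.07 to 7.65 (median 7.41) in CORT lambs. The groups overlapped, although 7 of the 8 CORT lambs exceeded the mean of the Control lambs. The log2 difference was 0.18 ± 0.10 (SE), a ratio of 1.13 with a confidence interval from 0.98 to 1.31 (limma p = 0.0873, adjusted p = 0.993; exact permutation p = 0.0856). With the processed signal it was 0.36 (limma adjusted p = 0.9997). Without CORT lamb 7, the lowest of its group, the difference was 0.23 (limma adjusted p = 0.967), and this was the 1 omission that brought a probe of the 4 genes under the unadjusted threshold.

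LPL A_70_P029922 ranged from 11.95 to 12.82 (median 12.57) in IVS Control and from 11.82 to 12.66 (median 12.36) in IVS CORT lambs. The log2 difference was -0.16 ± 0.14 (SE), a ratio of 0.894 with an interval from 0.729 to 1.098 (limma p = 0.267, exact permutation p = 0.292). LPL A_70_P029921 ranged from 11.56 to 12.34 (median 11.96) in Control and from 11.44 to 12.26 (median 11.78) in CORT lambs. Its log2 difference was -0.07 ± 0.13 (limma p = 0.611, exact permutation p = 0.619). PPARG ranged from 8.35 to 9.71 (median 9.08) in Control and from 8.83 to 9.35 (median 9.08) in CORT lambs. The medians coincided, and the SD was 0.51 in Control against 0.17 in CORT lambs, a difference in spread that was not tested. The log2 difference of PPARG was 0.10 ± 0.18 (limma p = 0.594, exact permutation p = 0.618). LEP A_70_P017126 ranged from 6.92 to 7.196 in Control and from 6.91 to 7.29 in CORT lambs (log2 difference 0.01 ± 0.07, limma p = 0.879, exact permutation p = 0.840). LEP A_70_P017127 ranged from 6.95 to 7.31 in Control and from 7.05 to 7.41 in CORT lambs (log2 difference 0.05 ± 0.07, limma p = 0.474, exact permutation p = 0.395). Neither LEP probe set the groups apart.

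**Figure D2:**
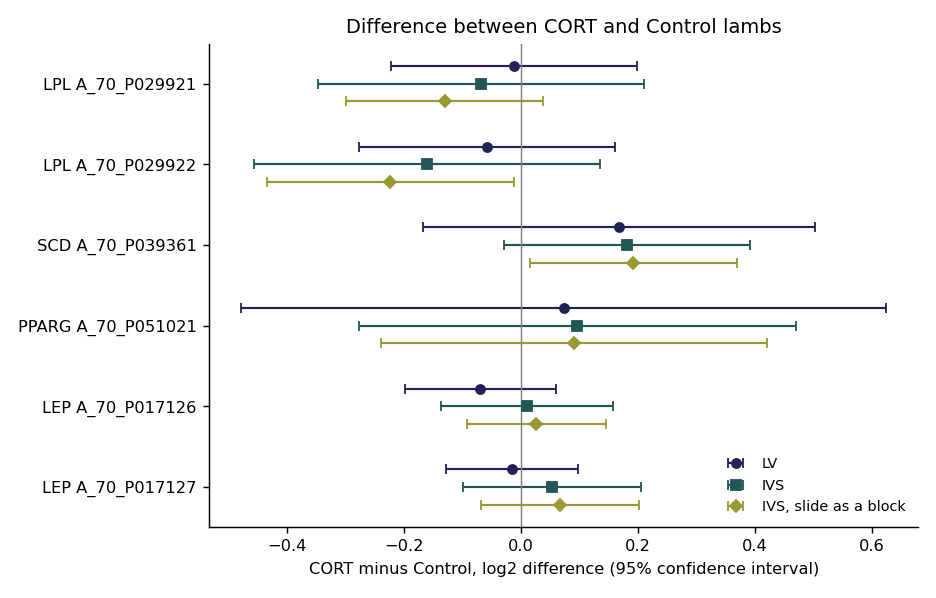
Log2 difference of CORT minus Control (horizontal axis) for the 6 probes, as limma estimates with 95% confidence intervals, in the LV, in the IVS, and in the IVS with the slide as a block (8 lambs per group). Every LV and IVS interval without the block includes 0, and with the block those of LPL A_70_P029922 (-0.22) and SCD (0.19) do not.

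The IVS arrays lay on 3 slides scanned at 3 different times, with 2, 3 and 3 Control and 2, 2 and 4 CORT lambs, so the comparison was repeated within slides. LPL A_70_P029922 was lower in CORT lambs on each of them, by log2 differences of -0.36, -0.21 and -0.16 for slides 3, 4 and 5. On slide 3 the Control lambs had 12.46 and 12.76 and the CORT lambs 12.16 and 12.36, without overlap, whereas on slides 4 and 5 the groups overlapped. LPL A_70_P029921 was also lower on each slide, by -0.15, -0.15 and -0.11. A further LPL probe outside the choice by symbol, A_70_P016916, had -0.12, -0.07 and 0.10 on slides 3, 4 and 5. SCD was higher in CORT lambs on each slide, by 0.39, 0.17 and 0.09. The SCD values on slide 3 were 6.88 and 7.00 in Control and 7.28 and 7.38 in CORT lambs. On slide 4 Control lambs reached 7.43 and CORT lambs started at 7.44. On slide 5 the groups overlapped, with 7.30 to 7.35 in Control and 7.07 to 7.65 in CORT lambs.

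With the slide as a block, SCD had a log2 difference of 0.19 ± 0.08 (SE; limma p = 0.0349), and exchanging treatments only within slides gave an exact permutation p of 0.0357 over 2100 assignments. LPL A_70_P029922 had -0.22 ± 0.10 (limma p = 0.0393), which missed the threshold in the exact permutation test within slides (p = 0.0519). LPL A_70_P029921 had -0.13 ± 0.08 (limma p = 0.118, exact permutation p = 0.115 within slides). The further LPL probe A_70_P016916 had -0.01 ± 0.08 (limma p = 0.918, exact permutation p = 0.916 within slides). Thus 2 of the 6 probes chosen by symbol passed the unadjusted threshold of limma, where 7.52% of all IVS probes did under the block. The limma adjusted p of both was 0.638 over the 11685 probes, and 0 probes on the array passed adjustment (879 had an unadjusted p under 0.05). For PPARG the differences within slides were 0.65, -0.04 and -0.15 in the same order, and the block gave 0.09 ± 0.15 (limma p = 0.566, exact permutation p = 0.601 within slides). In the LV 0 of 6 probes passed with the block, against 4.65% of all LV probes.

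**Figure D3:**
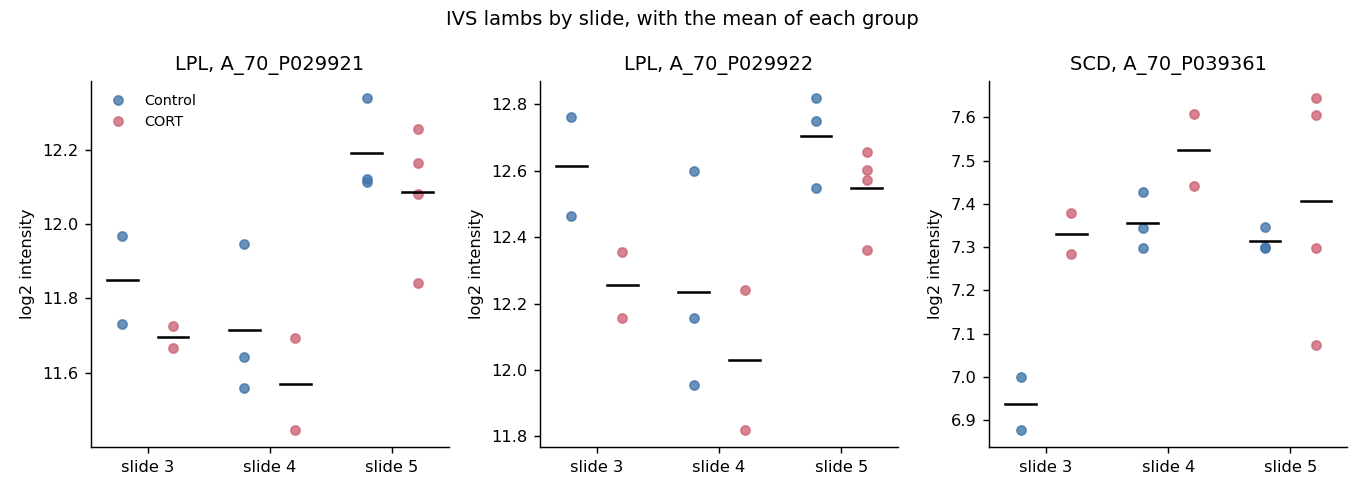
Log2 intensity (vertical axes) of both LPL probes and of SCD in single IVS lambs by slide, Control in blue and CORT in red, with a line at the mean of each group. The slides differ in level, and within each slide the CORT mean lies below the Control mean for these LPL probes and above it for SCD, by the smallest amount on slide 5 in each case.

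A separation among the lambs that did not follow treatment was found in the LV. PPARG was between 9.72 and 10.39 in 6 lambs and between 8.66 and 9.28 in the other 10, with the widest gap of the ordered values (0.44) between the sets. The 6 lambs, 3 on each slide, were Control lamb 2 and CORT lambs 2 and 4 on slide 1, and Control lambs 5 and 8 and CORT lamb 5 on slide 2. SCD was highest in the same 6 lambs, at 7.52 to 8.16 against 6.89 to 7.46 in the other 10, although no gap marked the boundary. FABP4, which encodes the fatty acid binding protein of fat cells and of capillary endothelium and is a known target of PPARG, had 8.999 to 10.16 in these 6 lambs and 6.32 to 7.75 in the other 10. FABP4 was above the background limit on 14 LV arrays and covered a 14.4-fold range, the gap between the sets alone being 1.24 on the log2 scale. The sets were recognised after the values were seen, and no test was made between them. The same 6 lambs were the highest for PPARG and SCD under all 5 other background corrections and normalizations tried, and for FABP4 under the 4 of them that hold a value for it.

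The LPL values of the 6 lambs lay inside the range of the others, with a somewhat higher median. LPL A_70_P029922 had 12.33 to 12.57 (median 12.36) in the 6 lambs and 11.90 to 12.63 (median 12.19) in the other 10, and LPL A_70_P029921 had 11.77 to 11.98 (median 11.89) against 11.40 to 12.00 (median 11.64). Over all 16 LV lambs PPARG and SCD had r = 0.88 and rho = 0.88, and r = 0.93 after centring on the slide. Permutation p was 1e-05 for r and 3e-05 for rho (adjusted p = 0.00015 and 0.00045 over 30 relations). These values span both sets of lambs. Relations among PPARG, SCD, FABP4 and LPL in the LV are therefore also given within each set. Within the 10 lambs PPARG and SCD had r = 0.65 and rho = 0.62 (permutation p = 0.0407 and 0.0611; adjusted p = 0.285 and 0.428 over 14 relations), with r = 0.53 without the 2 farthest lambs and 0.74 after centring on the slide. Within the 6 lambs they had r = 0.32 and rho = 0.49 (exact permutation p = 0.539 and 0.356; adjusted p = 0.949 and 0.83). PPARG and FABP4 had r = 0.81 and rho = 0.94 within the 6 lambs (exact permutation p = 0.0736 and 0.0167; adjusted p = 0.344 and 0.233) and r = 0.06 and rho = 0.16 within the 10 (permutation p = 0.877 and 0.656; adjusted p = 0.949 and 0.922). PPARG and LPL A_70_P029922 had r = 0.83 and rho = 0.71 within the 6 lambs (exact permutation p = 0.0236 and 0.136; adjusted p = 0.285 and 0.635), with r = 0.59 without the 2 farthest, and LPL A_70_P029921 had r = -0.08 with PPARG there (exact permutation p = 0.874; adjusted p = 0.949). None of the 14 relations passed adjustment within a set. The sets were cut on PPARG itself after its values were seen, which narrows its range and leaves few lambs in each. These tests therefore cannot decide whether the genes are related over all lambs.

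**Figure D4:**
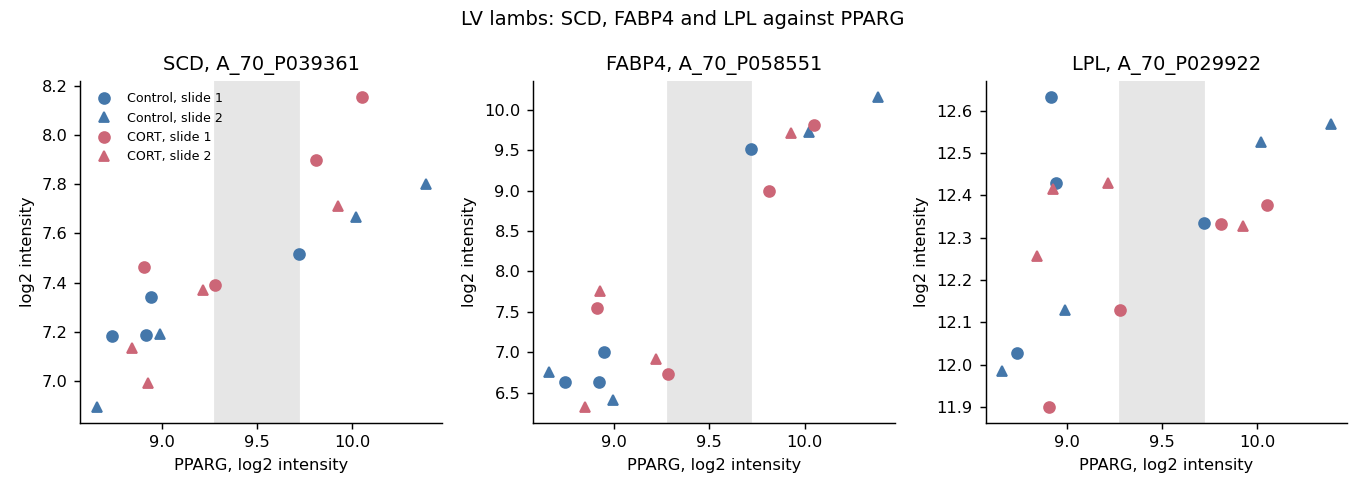
SCD, FABP4 and LPL (vertical axes, log2 intensity) against PPARG (horizontal axes, log2 intensity) in the 16 LV lambs, coloured by treatment and shaped by slide, with the gap in PPARG between 9.28 and 9.72 shaded. Right of the gap lie 3 Control and 3 CORT lambs, which have the highest SCD and FABP4 values, while their LPL values lie inside the range of the other lambs.

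Fat cells are a possible part of any sample of the heart wall, and fewer cells of a type cannot be told apart from less RNA per cell in bulk tissue. Of 10 adipocyte markers on a fixed list, 5 had a probe (LEP, PLIN1, FABP4, PCK1 and UCP1). PLIN1, the coat protein of the fat cell's lipid droplet, was above the limit on 16 of 16 LV arrays but moved little, from 7.53 to 8.05 and from 7.32 to 7.86 at its probes. PCK1 was above the limit on 4 LV arrays by either probe and UCP1 on 6. Of the 6 lambs with the highest PPARG, 6 were also the highest for FABP4, and 2 to 4 of them were among the 6 highest at the probes of LEP, PLIN1, PCK1 and UCP1. The summed linear signal of the tested adipocyte markers was 431.7 to 1487 in LV Control and 386.5 to 1237 in LV CORT lambs (LEP, PLIN1 and FABP4). It was 376.2 to 586.8 in IVS Control and 397.3 to 648.8 in IVS CORT lambs (LEP, PLIN1 and PCK1). MB, for the myoglobin of muscle, was bright in all lambs, at 17.3 or more. The part of fat cells in the PPARG and SCD values was not tested.

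In the IVS the same separation was not seen. FABP4 was above the limit on 5 of 16 IVS arrays, from 6.24 to 6.78 in 15 lambs and at 7.52 in Control lamb 3, whose PPARG of 8.65 was the third lowest. PPARG and SCD had r = 0.60 and rho = 0.46 over the 16 IVS lambs (permutation p = 0.0142 and 0.0737; adjusted p = 0.107 and 0.276 over 30 relations). The relation was r = 0.50 without the 2 farthest lambs. After centring on the slide r was 0.44. It was 0.99 among the 4 lambs of slide 3, 0.04 among the 5 of slide 4 and 0.25 among the 7 of slide 5, and thus was high on slide 3 only. Both Control lambs of slide 3 lay below both CORT lambs for PPARG (8.35 and 8.41 against 8.99 and 9.08) and for SCD. The relation and the treatment therefore cannot be told apart on that slide.

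PPARG in the IVS also moved with the brightness of the array. Over the 16 IVS arrays, whose median spot intensity ran from 131 to 332, PPARG was lower on brighter arrays, with r = -0.81 and rho = -0.64 (permutation p = 0.00016 and 0.00893; adjusted p = 0.00192 and 0.107 over 12 relations). The r was -0.70 without the 2 farthest arrays and -0.87, -0.55 and -0.75 within slides 3, 4 and 5. SCD had r = -0.62 and rho = -0.58 (permutation p = 0.0117 and 0.0195; adjusted p = 0.0701 and 0.117), with r = -0.70 without the 2 farthest and -0.78, -0.59 and -0.21 within the slides. The LPL probes went the other way on slides 3 and 4. Over the 16 IVS arrays r was 0.13 for LPL A_70_P029922 and -0.21 for LPL A_70_P029921 (permutation p = 0.639 and 0.43; adjusted p = 0.909 for both), while within slides 3, 4 and 5 it was 0.90, 0.94 and -0.33 for the former and 0.87, 0.95 and -0.41 for the latter. The median intensity ranged from 131 to 332 on IVS Control and from 177 to 217 on IVS CORT arrays, and its part in the comparisons of PPARG, SCD and LPL, within slides or over them, was not tested. Its median over the 4 arrays of slide 3 was 239, above every IVS CORT array, so both Control arrays there were brighter than both CORT arrays. On slide 3 brightness and treatment therefore cannot be told apart.

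Between the tissues, PPARG and SCD tended to be lower in the IVS, and the LPL and LEP probes chosen by symbol were level. No probe of the 4 genes chosen by symbol passed adjustment. The LPL probe outside that choice, A_70_P016916, did pass, with a log2 difference of IVS minus LV of 0.47 ± 0.08 (SE; limma adjusted p = 0.000427). With the slide as a random block its limma adjusted p was 0.0552. That probe is described under Other observations. With all 32 arrays normalized together, PPARG was 9.41 ± 0.56 (SD, n = 16) in the LV and 8.99 ± 0.37 in the IVS, a log2 difference of IVS minus LV of -0.42 ± 0.16 (SE; limma adjusted p = 0.0922; unadjusted p = 0.0163). SCD was 7.48 ± 0.35 in the LV and 7.28 ± 0.20 in the IVS, a difference of -0.20 ± 0.10 (limma adjusted p = 0.163; unadjusted p = 0.0432, n = 16). Of all 11520 probes tested, 11.9% passed adjustment and 28.1% had an unadjusted p under 0.05. The differences of the LPL probes chosen by symbol were 0.03 and 0.03 (limma adjusted p = 0.846 and 0.848). Those of the LEP probes chosen by symbol were 0.05 and 0.06 (limma adjusted p = 0.475 and 0.354). The LV and the IVS lay on different slides, so tissue and slide cannot be told apart. With the slide as a random block the difference was -0.44 ± 0.29 for PPARG (limma adjusted p = 0.614) and -0.21 ± 0.17 for SCD (limma adjusted p = 0.701), and 0.148% of the probes passed adjustment.

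Whether the effect of maternal cortisol differed between the tissues was tested as an interaction over the 32 arrays. The arrays were taken as independent, although the tissues share lambs. Of the 6 probes 0 had an unadjusted limma p under 0.05, where 2.02% of the 11520 probes did. The interaction of SCD was 0.00 with a confidence interval from -0.39 to 0.40, that of PPARG 0.02 (from -0.65 to 0.69), and those of the LPL probes -0.06 (from -0.41 to 0.29) and -0.11 (from -0.47 to 0.26).

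The 4 genes and genes that work beside them were taken from 6 lists. These covered fatty acid uptake, triglyceride storage and lipolysis, fatty acid synthesis and desaturation, and fatty acid oxidation. The others covered PPAR and adipogenic transcription factors, and adipokines with their receptors and AMPK. Of the 135 genes on the lists 26 had a probe, with 42 probes in all, which include the 6 probes given above. In the LV 2 of 34 tested probes had an unadjusted limma p under 0.05 (5.88%, against 3.85% of all LV probes). Both were probes of CPT1A, which encodes the carnitine palmitoyltransferase that admits long-chain fatty acids to mitochondria in liver and, beside CPT1B, in the young heart. CPT1A A_70_P051281 ranged from 8.63 to 9.63 in Control and from 8.05 to 9.22 in CORT lambs, a log2 difference of -0.41 ± 0.17 (limma p = 0.0268, adjusted p = 0.999; exact permutation p = 0.0441). CPT1A A_70_P051282 had -0.40 ± 0.17 (limma p = 0.0297; exact permutation p = 0.0482). The groups overlapped at both probes. In the fatty acid oxidation list 1 of 4 tested genes passed the unadjusted threshold, being lower, and the other 3 had positive differences that did not pass, with a median log2 difference of 0.02 against 0.00 for all probes. Of all 11518 LV probes 50.9% had a positive difference. Among 21 tested probes for markers of 6 cell types, those of LEP included, 3 passed the unadjusted threshold in the LV (14.3%, against 3.85%), all lower in CORT lambs, namely COL3A1 of fibroblasts by a log2 difference of -0.28 and -0.27 at its probes (exact permutation p = 0.0207 and 0.0202) and CD14 of macrophages by -0.16 at 1 of 2 probes (exact permutation p = 0.0263), and their part in the CPT1A values was not tested. DCN, the other fibroblast marker with a probe, had log2 differences of 0.02 and 0.08 in the LV.

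In the IVS 2 of 33 tested probes of the lists passed the unadjusted threshold (6.06%, against 3.59%), both lower in CORT lambs. FABP5, for a fatty acid binding protein of endothelium and other cells, ranged from 13.39 to 14.40 in Control and from 12.75 to 14.02 in CORT lambs, a log2 difference of -0.45 ± 0.18 (limma p = 0.0266, adjusted p = 0.993; exact permutation p = 0.0413). ACLY, for the citrate lyase that supplies acetyl-CoA to fatty acid synthesis, ranged from 8.13 to 9.07 in Control and from 7.85 to 8.52 in CORT lambs, a difference of -0.32 ± 0.14 (limma p = 0.0321, adjusted p = 0.993; exact permutation p = 0.0432). In the uptake list all 3 tested genes had a negative difference (FABP5, CAV1 and LPL, median -0.23), 1 of which passed. Of all 11685 IVS probes 47.2% had a positive difference, and 3 genes are too few to give the list a direction. Each gene stood by the brightest of its probes on the list, and LPL A_70_P016916, which was not among them, had -0.02. The 5 tested genes of synthesis and desaturation had 3 positive and 2 negative differences. With the slide as a block 4 of 33 probes passed (12.1%, against 7.52%), the 2 added being LPL A_70_P029922 and SCD. Both of these were already given above, so the count holds no separate result for them. In the triglyceride storage, PPAR and adipokine lists no gene passed in either tissue, with median differences between -0.04 and 0.08. None of these genes passed adjustment over all probes. Of the marker probes 0 of 22 passed the unadjusted limma threshold in the IVS and 1 passed with the slide as a block. This was DCN, whose probe A_70_P030252 had a log2 difference of 0.22 and, with the block, of 0.19 ± 0.07 (limma adjusted p = 0.638), and whose probe A_70_P030251 had 0.18 (exact permutation p = 0.0448) and 0.16 ± 0.08 with the block. The part of fibroblasts in the values of FABP5, ACLY, LPL and SCD was not tested.

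Among the probes of other named genes above background in both tissues (942 for PPARG and SCD, 941 for LPL and LEP), the likeness of a pattern was measured as the lower of the Pearson r over the 16 LV and over the 16 IVS lambs, as a description. In the LV these r span both sets of lambs. For PPARG the 3 most alike were BCL2, an inhibitor of apoptosis (0.62), SCD (0.60) and INHA, the alpha subunit of inhibin (0.58). For SCD they were PPARG (0.60), another BCL2 probe (0.54) and INHA (0.53). For LPL A_70_P029921 they were ASF1A (0.53) and both probes of ATP6V1B2, a subunit of the vacuolar proton pump (0.49 and 0.48), and for LPL A_70_P029922 they included NTN4 (0.53) and ATP6V1B2 (0.49). After centring on the slide, BCL2 and INHA kept r between 0.46 and 0.73 with PPARG and SCD in both tissues, NTN4 had 0.75 and 0.45 in the LV and IVS, and the IVS r with LPL A_70_P029921 was 0.14 for ASF1A and 0.15 and 0.20 for ATP6V1B2. The LEP probes had no such gene in common. For LEP A_70_P017127 the nearest were SLC9A3R1 (0.45), SST1 (0.42) and HACD1 (0.42), and for LEP A_70_P017126 IL3 (0.59), HR (0.56) and NPY1R (0.51). Centred on the slide, these r were positive for SLC9A3R1 and SST1 in both tissues (0.30 to 0.71), whereas HACD1 had -0.23 in the LV, IL3 0.17 and 0.18, HR 0.08 in the IVS and NPY1R -0.33 in the IVS.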

How the data were processed

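RNA of the LV and IVS was measured on 1-colour Agilent arrays, 1 lamb per array. For every array the authors deposited the output of Agilent Feature Extraction 10.1.1.1 (version per the submitters' processing notes), which holds for each spot its fluorescence intensity, in arbitrary units, beside that of its surroundings. A deposited matrix for each tissue holds log2 values after background correction and quantile normalization. Labels and methods differ in dye and RNA amount. Here normexp with an offset of 50 removed background from the mean intensity, and arrays were then quantile normalized within each tissue (16 arrays) or together (32) for comparisons between tissues. Control and outlier spots were left out and spots of a probe averaged. Probes above the background limit on 8 arrays (16 of 32) were tested in limma 3.58.1 (R 4.3.3, statmod 1.5.0), checked on simulated arrays. Permutation tests were run in Python 3.11.15, those within slides being added after the data were seen. Median spot intensity was 131 to 332, with 59.7 to 80.4% of probes well above background; the number of arrays limits precision. Groups came from the labels. All probes of the 4 genes, list genes with an unadjusted p under 0.05 and the 3 most similar genes are named, except 1 similar gene that is not reported here. The genes and lists were chosen with earlier results of these data known. FABP4 outside this rule was named after its values were seen. Alternatives were other background corrections and normalizations, the deposited matrix, other limits, blocks, array weights, trended and robust eBayes, and leaving out single lambs.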

Additional observations from a re-analysis of the deposited data

How the results depend on the processing

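For CORT minus Control at the 6 probes in both tissues, 134 of 143 values under other settings and 175 of 192 values with 1 lamb left out kept their direction and their side of the threshold. The cause of the changes below was not tested. In the LV, LPL A_70_P029921 turned positive with the processed signal (0.0082), cyclic loess (0.00486) and the deposited matrix (0.000156). In the IVS, LEP A_70_P017126 turned to -0.0065 with no background correction. With arrays weighted by quality, IVS values turned to -0.011 for PPARG, 0.00881 for LPL A_70_P029921 and -0.012 for LEP A_70_P017126, and interactions turned to -0.0577 for PPARG, 0.0493 for LPL A_70_P029921 and 0.0203 for LPL A_70_P029922. For IVS minus LV, the processed signal turned LPL A_70_P029921 to -0.0558 and LPL A_70_P029922 to -0.0268 and gave 0.31 for LEP A_70_P017126 (limma adjusted p = 0.0745). SCD lost its unadjusted call there with the processed signal (-0.39), array weights (-0.19) and the slide as a random block. With 1 lamb left out, LV differences ran from -0.0237 to 0.229 for PPARG (negative without Control lamb 4 or 7 or CORT lamb 4 or 5), from -0.0608 to 0.0351 for LPL A_70_P029921, from -0.038 to 0.00416 for LEP A_70_P017127 and from 0.08 to 0.24 for SCD, and IVS differences from 0.13 to 0.23 for SCD, from -0.0178 to 0.043 for LEP A_70_P017126 and from -0.24 to -0.09 for LPL A_70_P029922.

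Counts over all probes with an unadjusted p under 0.05 moved by over 1.5 times in these cases. Array weights gave 725 in the LV, against 444. In the IVS, against 419, the slide as a block gave 879 and the replicate block 639, and leaving out 1 lamb gave 228 to 852 (261 without Control lamb 1, 253 without 2, 228 without 3, 708 without 5 and 852 without 8), against 298 to 603 in the LV. For IVS minus LV the slide as a random block gave 1292 against 3232, and 17 past adjustment against 1374. For the interaction it gave 448 and cyclic loess 152, against 233. Past adjustment, leaving out 1 lamb gave 0 in either tissue.

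The labels do not tie a lamb number to 1 animal, and not every pair of samples with 1 number correlated over 0.1. Deviations from the group means correlated with a median r of 0.04 between LV and IVS samples of 1 number (7 of 16 over 0.1, and 6 of 16 LV samples correlating best with their own number, at 0.29 to 0.64), and of 0.06 in the LV and 0.30 in the IVS between Control and CORT lambs of 1 number. The replicate block left the differences of the 6 probes on the same side of the threshold (SCD in the IVS 0.18, limma adjusted p = 0.796), and gave 536 probes in the LV. With the lamb as a block, 1378 probes passed adjustment for IVS minus LV and SCD stayed at -0.20 (limma adjusted p = 0.126). SCD and LEP lay near the negative controls in both tissues, which limits their precision.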

Other observations

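The array held a further probe described as LPL, A_70_P016916, and one described as LEP, A_70_P026616, both named in the description of the 3' untranslated region alone and therefore outside the choice by symbol. The LPL probe was above the background limit on all 32 arrays. It differed from the coding-region LPL probes between tissues, with 13.51 ± 0.11 (SD, n = 16) in the LV and 13.98 ± 0.31 in the IVS, a log2 difference of IVS minus LV of 0.47 ± 0.08 (SE; limma adjusted p = 0.000427), where the 2 probes above had 0.03. Its mean was 13.49 and 13.53 on LV slides 1 and 2, and 14.43, 13.89 and 13.78 on IVS slides 3, 4 and 5, each above both LV slides. With the slide as a random block the difference was 0.51 ± 0.12 (limma adjusted p = 0.0552), and tissue and slide cannot be told apart. Between treatments in the IVS it had a log2 difference of -0.02 ± 0.14 (limma p = 0.883, exact permutation p = 0.885) and of -0.01 ± 0.08 with the slide as a block (limma p = 0.918, exact permutation p = 0.916 within slides). Within the slides it had -0.12, -0.07 and 0.10. The lower values of LPL in CORT lambs at the coding-region probes were thus not seen at this probe on slide 5 or over the slides together. The difference between the probes was not tested. The LEP probe was above the limit on 16 of 16 LV and 14 of 16 IVS arrays, with log2 differences of -0.05 ± 0.07 in the LV (exact permutation p = 0.460) and 0.06 ± 0.12 in the IVS (exact permutation p = 0.603).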
